A study of Caenorhabditis elegans with 24 samples.

Results

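Loci that encode piRNAs, the small RNAs of the germline, were followed through RNA-seq of *Caenorhabditis elegans* germline nuclei and whole worms. Every gene with a WormBase name beginning with 21ur- was taken from the deposited tables. The nuclei table held 37 such loci among 14206 genes, and the HSF-1 depletion table held 3 among 12958. Of these, 21ur-15576 and 21ur-12975 were in both tables, which gave 38 loci of the 15363 annotated. Within that name rule, the 37 loci of the nuclei table were in effect selected on their own read counts, since all of them met the limit on low values used for the tests, so their presence is a description and not a finding. That does not hold for the depletion table, where 1 of the 3 loci had 0 reads throughout.

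*C. elegans* piRNAs, also called 21U-RNAs, are transcribed one locus at a time, mostly from chromosome IV. The short capped precursors are trimmed and methylated at the 3′ end, and the mature RNA is bound by PRG-1, an Argonaute of the Piwi family. PRG-1 with its piRNA recognizes foreign or unwanted transcripts in germ cells, and downstream Argonautes and the mutator proteins keep them silent. Mature piRNAs have no poly(A) tail. Each annotated locus here spans 21 bp, the mature RNA alone, so a read assigned to it came from any longer RNA that crossed this stretch.

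RNA was sequenced from enriched germline nuclei and from whole worm lysates of young adults, with 3 libraries each for the wild type and for *daf-2(e1370)*, an allele that lowers insulin/IGF-1 signaling. In this series "wild type" is strain JTL621, which carries ljt3[hsf-1::degron::gfp], unc-119(ed3) and ieSi38, and the *daf-2(e1370)* strain JTL642 carries ljt3 and ieSi38 too. The ieSi38 transgene expresses TIR1 in the germline from the *sun-1* promoter, and its rescuing *unc-119* is from *C. briggsae*. A further 12 libraries came from whole JTL642 animals on 1 mM auxin, which degrades HSF-1 in germ cells, or on 0.25% ethanol, for 16 h from the young adult stage or for 88 h from egg lay, again with 3 in each group. All animals were grown at the same temperature on OP50 bacteria, each nuclei preparation pooled many animals, and nothing in the sample records says that replicates were separate cultures, so the p-values measure the spread between these samples.

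Depth set what could be seen. The deposited unit is log2 CPM, the log2 of read counts scaled to an adjusted library size. Reads listed per library, recovered from the spacing of low values, were 13900000 to 19300000 in nuclei, 21900000 to 28800000 in worms and 20900000 to 38000000 in the depletion table. A level of 1 CPM stood for 6.38 to 11.3 reads in the nuclei libraries and for 34.0 to 66.0 reads in the worm libraries. A locus with 0 reads stood at the lowest value of its table, -3.89 in the nuclei table and -4.09 in the depletion table. As checks of the fractions, the 6 body wall muscle markers had a median difference between nuclei and worms of -2.59 for the wild type and -2.82 for *daf-2(e1370)*, and the 8 intestinal markers of -2.40 and -3.62, on the log2 CPM scale. Of the muscle markers only *lev-11* went the other way, at 8.96 to 9.46 log2 CPM in nuclei and 7.70 to 9.16 in worms. In the wild type, only *cpr-6* of the intestinal markers overlapped between fractions. The muscle markers summed to 656 to 840 CPM in nuclei and to 887 to 1912 CPM in worms. The summed level of the intestinal markers was 270 to 459 CPM in nuclei and 1200 to 5054 CPM in worms. Together the gut markers were lower but not at 0 in the nuclei. The 12 germline markers summed to 621 to 973 CPM in nuclei and to 781 to 1465 CPM in worms. Their median difference was -0.51 for the wild type and -0.58 for *daf-2(e1370)*, beside -0.34 and -0.63 over all genes. As a median, the germline markers were therefore not higher in nuclei as deposited. The 9 sperm markers were, with a median difference of 0.98 in each genotype, though some of them overlapped between fractions. They summed to 517 to 781 CPM in wild-type nuclei and 218 to 417 CPM in wild-type worms. For *daf-2(e1370)* these sums were 277 to 396 CPM and 121 to 177 CPM. In bulk RNA, fewer cells of a type and less RNA per cell cannot be told apart.

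The 37 loci of the nuclei table were placed on the WBcel235 genome. Chromosome IV held 32 of them (86.5%, against 95.8% of all annotated loci), chromosome III held 3, and V and X held 1 each. Of the 37, 11 lay in the western stretch of chromosome IV rich in piRNA loci, from 4.5 to 7.0 Mb, and 18 in the eastern stretch, from 13.5 to 17.2 Mb. These are 29.7% and 48.6% of the 37, against 18.3% and 74.1% of all annotated loci. The loci were also less crowded. No other piRNA locus started within 1000 bp of 11 of the 37 (29.7%), against 6.89% of all annotated loci, and the median number of such neighbors was 4 against 8.

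Many of the loci lie on other transcripts. An exon of another gene covered 10 of the 37 (27.0%, against 7.21% of all annotated loci), an intron covered 7 (18.9% against 33.9%), and 20 lay between genes (54.1% against 58.9%). All 10 loci in exons were on the strand opposite to the gene that held them. Among the 1108 annotated piRNA loci in exons, 520 (46.9%) had the exon on the opposite strand only and 578 (52.2%) on the same strand only. The counting used settings both for sharing a read among overlapping genes and for preferring the largest overlap, and its strand setting is not given, so reads of a locus and of a gene on the other strand cannot be told apart. Among the 20 loci between genes, the nearest gene was 55 to 10622 bp away (median 1034 bp) and lay within 1000 bp of 9 loci.

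Over all 37 loci, levels were far higher in germline nuclei than in whole worms. The single library values ranged from -3.89 to 5.99 log2 CPM in nuclei, with a median of 1.71, and from -3.89 to 4.08 in worms, with a median of -3.30. The median number of reads at a locus was 11 to 57 in the nuclei libraries and 1 to 6 in the worm libraries. Reads were present in all 12 libraries for 6 loci and in all 6 nuclei libraries for 20. The map of levels by locus and library shows this contrast for each annotation class.

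**Figure D1:**
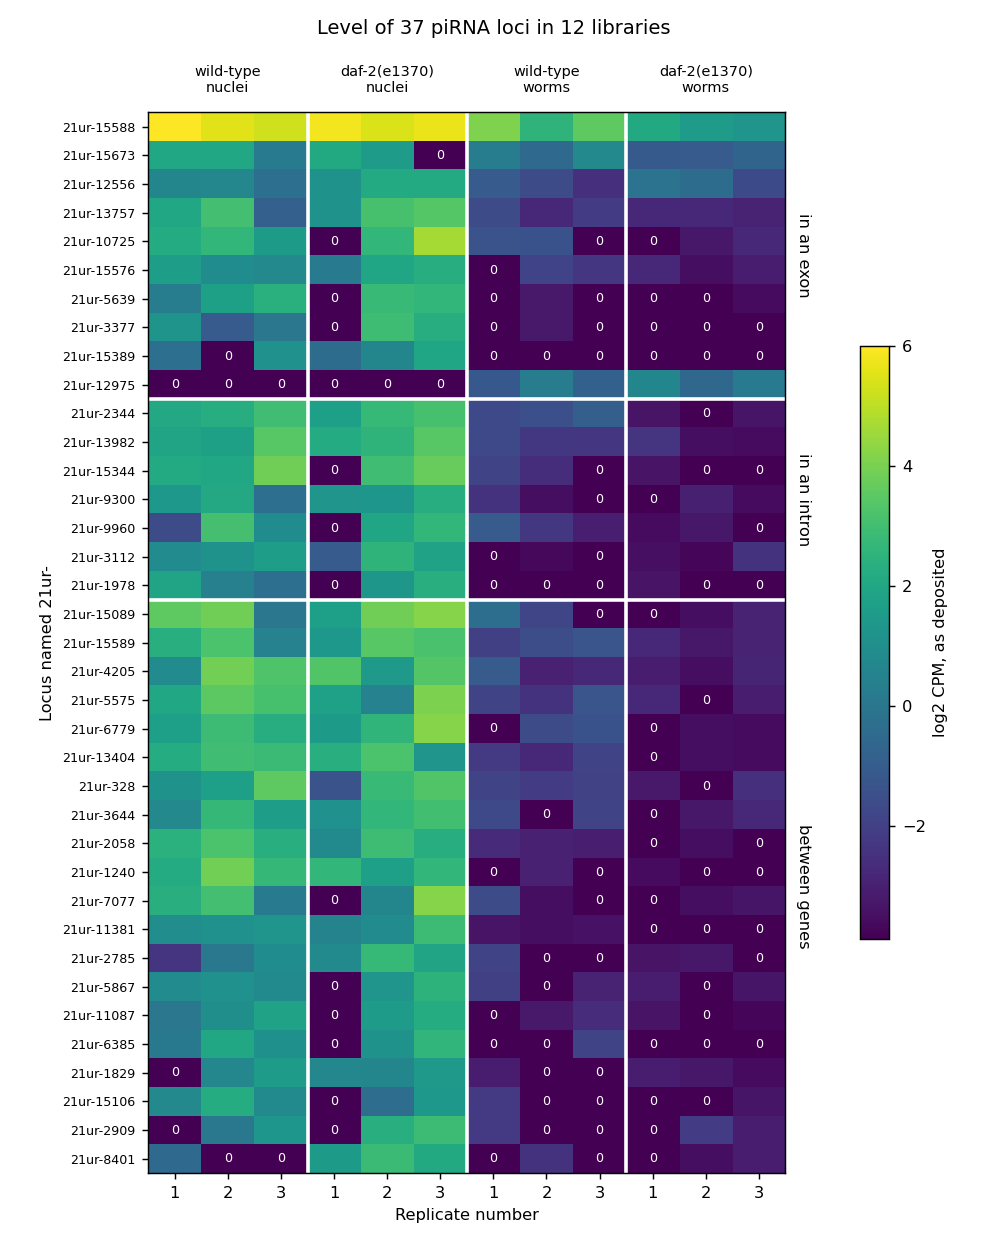
Level of each of the 37 piRNA loci (rows, ordered within each class by mean level) in each of 12 libraries (columns, replicate numbers within 4 groups), as color on the deposited log2 CPM scale. A white 0 marks a library with 0 reads at that locus. Most nuclei cells are higher than the worm cells of the same row, 21ur-12975 has 0 reads in all 6 nuclei columns, and *daf-2(e1370)* nuclei replicate 1 has 13 loci at 0 reads.

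How the loci entered the table bears on that contrast. A gene was kept for the tests when 3 or more of the 12 libraries reached 1 CPM. Of the 37 loci, 34 reached 1 CPM in nuclei libraries only, 21ur-12975 in worm libraries only, and 21ur-15588 and 21ur-15673 in both, so most of these loci had to be higher in nuclei to be kept. Just inside the limit, with 3 libraries at 1 CPM, were 21ur-8401, 21ur-15389 and 21ur-12975. No member lay just outside it, since all 37 passed, and loci below the limit were not analysed here. In the comparison of nuclei with worms, 27 of 37 loci were higher and 1 lower in the wild type (all genes tested, 15.9% higher and 19.4% lower). In *daf-2(e1370)*, 33 were higher and 1 lower (all genes, 21.3% higher and 32% lower). All 6 nuclei libraries were above all 6 worm libraries at 18 of 37 loci (all genes, 12.9%). These counts are descriptions, and nothing is read from them.

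The same path into the table was open to other genes. Among all 13613 genes kept, 620 (4.55%) reached 1 CPM in nuclei libraries only. The share was 2.51% for protein-coding genes, 70.3% for the 269 genes annotated as ncRNA (189 genes), 53.3% for the 15 antisense RNAs and 91.9% for piRNA loci. The median difference between nuclei and worms was 4.21 log2 CPM for the wild type and 4.64 for *daf-2(e1370)* for piRNA loci. For the ncRNA genes it was 4.06 and 4.98, and over all genes it was -0.34 and -0.63. The ncRNA genes and the piRNA loci therefore had similar medians in both genotypes.

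**Figure D2:**
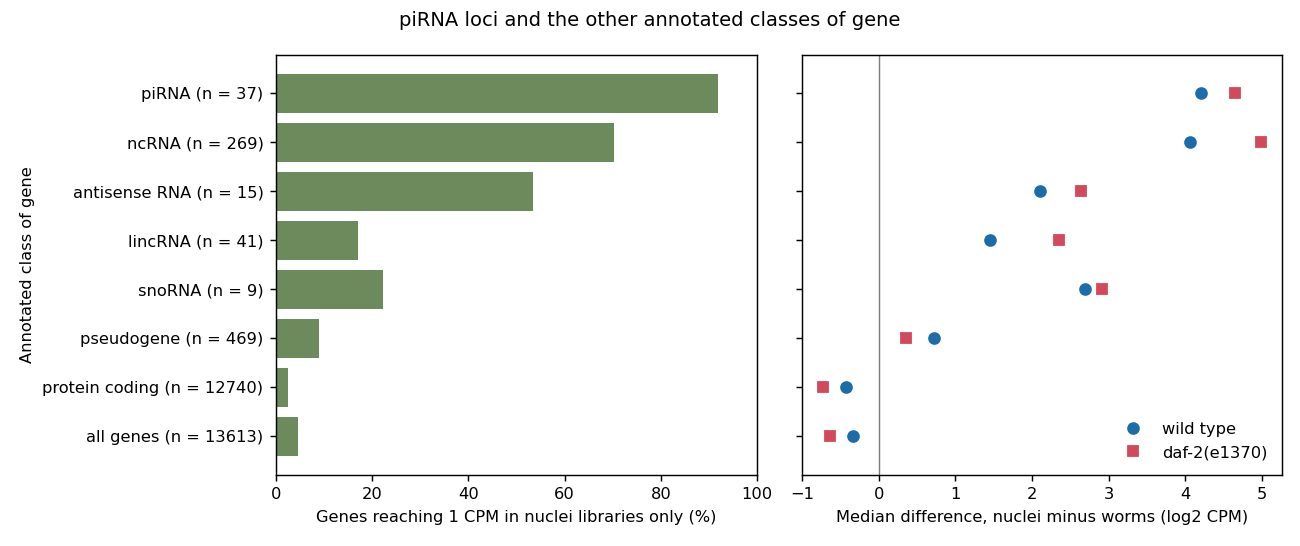
Left, share of the kept genes of each annotated class that reached 1 CPM in nuclei libraries only (bars, percent). Right, median over each class of the difference between the means of 3 nuclei and 3 worm libraries (log2 CPM), with circles for the wild type and squares for *daf-2(e1370)*. The piRNA loci (91.9%, medians 4.21 and 4.64) sit beside the ncRNA genes (70.3%, medians 4.06 and 4.98), and protein-coding genes are at 2.51%.

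The scale of this difference depends on how libraries are made comparable. The deposited CPM of a library sum to between 1240000 and 2690000 in nuclei and to between 423000 and 645000 in worms. Scaling each library to its own total, which was added after seeing the data, moved the median of all genes to -2.18 (wild type) and -2.65 (*daf-2(e1370)*). The median of the piRNA loci then was 2.76 and 3.74. Relative to all genes, the loci were 4.55 and 5.27 higher as deposited and 4.94 and 6.39 higher after that scaling. Of the wild-type calls between nuclei and worms over all genes, 45.1% were higher in nuclei before that scaling and 5.4% after it, and for *daf-2(e1370)* these shares were 39.9% and 8.6%.

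The highest locus was 21ur-15588, on the plus strand of chromosome IV from 2388245 to 2388265, inside an exon of *sec-61.B*, which encodes the beta subunit of the Sec61 translocon and is read from the minus strand. Its level in wild-type nuclei was 5.99, 5.55 and 5.29 log2 CPM, and in *daf-2(e1370)* nuclei 5.81, 5.45 and 5.73. In worms it was 4.08, 2.55 and 3.53 in the wild type and 2.10, 1.56 and 1.28 in *daf-2(e1370)*. All nuclei libraries were above all worm libraries, and the *daf-2(e1370)* worms were below the wild-type worms with no overlap. It was the only locus that reached 1 CPM in all 12 libraries, with 151 to 573 reads in each. The difference between nuclei and worms was 2.22 ± 0.38 (SE) in the wild type (limma, adjusted p = 0.000617) and 4.02 ± 0.38 in *daf-2(e1370)* (limma, adjusted p = 1.9e-06). Scaled to library totals, the wild-type difference was 0.30 (limma, adjusted p = 0.554), so that call was lost, and the *daf-2(e1370)* difference was 1.86.

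The gene on the other strand had a similar profile. The level of *sec-61.B* was 8.68, 8.41 and 8.05 log2 CPM in wild-type nuclei, 8.35, 8.66 and 8.14 in *daf-2(e1370)* nuclei, 7.67, 6.45 and 7.35 in wild-type worms and 6.53, 6.08 and 5.92 in *daf-2(e1370)* worms. Nuclei exceeded worms by 1.22 ± 0.31 for the wild type and 2.21 ± 0.31 for *daf-2(e1370)* (SE, limma, adjusted p = 0.00713 and 4.95e-05). Within wild-type worms, replicate 2 was lowest at the gene, as it was at the locus. Whether the locus and the gene differed in their nuclei and worm difference was not tested.

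Next in mean level was 21ur-15673, on the minus strand of chromosome III from 10335090 to 10335110, in an exon of *mev-1*, a subunit of succinate dehydrogenase. It was at 2.01, 2.04 and 0.16 log2 CPM in wild-type nuclei, at 2.13, 1.58 and 0 reads in *daf-2(e1370)* nuclei, at 0.28, -0.52 and 0.76 in wild-type worms and at -1.09, -1.05 and -0.71 in *daf-2(e1370)* worms. The nuclei and worm values overlapped, and neither difference passed (1.23 ± 1.29 and 0.89 ± 1.29, SE, limma, adjusted p = 0.481 and 0.579). *mev-1* itself had mean levels of 4.42 and 4.75 in nuclei and 4.50 and 4.36 in worms, for the wild type and *daf-2(e1370)*.

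21ur-12556 lies on the plus strand of chromosome IV from 11401964 to 11401984, in an exon of *memi-3*, a member of a family that acts at the passage from meiosis to mitosis. It stood at 0.66, 0.68 and -0.26 in wild-type nuclei and at 1.20, 2.17 and 2.16 in *daf-2(e1370)* nuclei, so the *daf-2(e1370)* libraries were above the wild type without overlap. In worms it was -1.06, -1.63 and -2.54 in the wild type and -0.13, -0.41 and -1.68 in *daf-2(e1370)*, which overlapped. *memi-3* ran the other way between fractions, with means of 1.82 and 3.47 in nuclei and 4.28 and 4.97 in worms, so this locus and its gene differed in direction as deposited. Scaled to library totals, 21ur-12556 was 0.41 and 0.55 higher in nuclei, and neither passed.

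A single locus was found on the other side. 21ur-12975, on the plus strand of chromosome X from 16262684 to 16262704 in an exon of *mua-6*, an intermediate filament gene of the hypodermis, had 0 reads in all 6 nuclei libraries. In worms it had 13, 59 and 19 reads in the wild type and 99, 31 and 68 in *daf-2(e1370)*, or -1.15, 0.30 and -0.82 and 0.65, -0.60 and 0.15 log2 CPM. Against a floor of 3 reads over the 3 nuclei libraries, worms were at least 5.8-fold higher in the wild type and at least 8.65-fold higher in *daf-2(e1370)*. 21ur-12975 was kept through worm libraries alone, which fixes the direction, so nothing is read from its test. The fitted wild-type difference passed as deposited (limma, adjusted p = 0.00326) and not on the log2(CPM + 1) scale (adjusted p = 0.0735). *mua-6* was detected in every nuclei library, with means of 3.48 and 3.05 in nuclei and 4.06 and 4.82 in worms. The 6 hypodermal markers had a median difference between nuclei and worms of -1.05 and -1.24, but they were split. *col-19*, *col-140* and *lin-26* were lower in nuclei without overlap in both genotypes. *dpy-7* was higher in *daf-2(e1370)* nuclei, at 3.55 to 5.05 log2 CPM against -2.30 to 0.16 in worms, and overlapped in the wild type. *rol-6* and *bli-1* overlapped between fractions in both genotypes. The part of hypodermal RNA in the result was not tested.

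**Figure D3:**
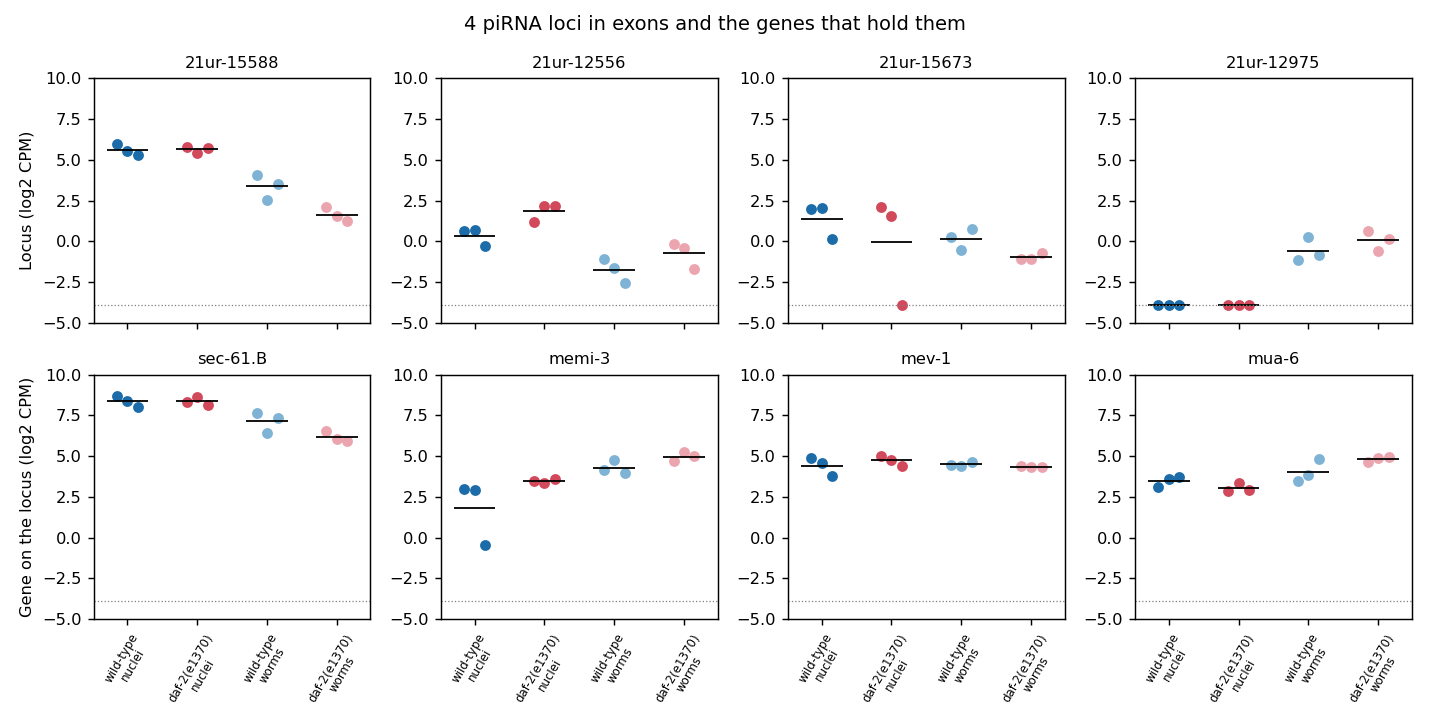
Level of 4 piRNA loci in exons (top) and of the gene whose exon holds each (bottom), in log2 CPM. Points are single libraries, bars are means of 3, and the dotted line is the value of 0 reads. 21ur-12975 lies on that line in all 6 nuclei libraries while *mua-6* does not, and 21ur-15588 and *sec-61.B* are both lowest in *daf-2(e1370)* worms.

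The other loci in exons were read in nuclei and near 0 reads in worms. 21ur-13757, the locus on chromosome V (5599413 to 5599433, plus strand, in *CD4.8*), had a lowest, median and highest level of -0.87, 2.51 and 3.38 log2 CPM over the 6 nuclei libraries and of -2.96, -2.79 and -1.59 over the 6 worm libraries. 21ur-10725 (chromosome IV, 13938376 to 13938396, minus strand, in *Y37A1A.4*) was at -3.89, 2.42 and 4.65 in nuclei and at -3.89, -3.02 and -1.36 in worms. The wide span of 21ur-10725 in nuclei came from 0 reads in *daf-2(e1370)* replicate 1 and 160 in replicate 3. 21ur-5639 (chromosome IV, 16022511 to 16022531, plus strand) sits opposite an exon of a snoRNA gene within an intron of *jac-1*, a p120 catenin, and was at -3.89, 2.05 and 2.81 in nuclei and at or below -3.23 in worms.

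21ur-15576 (chromosome III, 191805 to 191825, minus strand) lies in an exon of *cox-17*, a copper chaperone of cytochrome oxidase. It was at 1.63, 0.91 and 0.76 log2 CPM in wild-type nuclei and at 0.24, 1.96 and 2.25 in *daf-2(e1370)* nuclei. In worms it was at 0 reads, -1.92 and -2.33 in the wild type and at -2.81, -3.53 and -3.14 in *daf-2(e1370)*. All nuclei values were above all worm values, and the genotypes overlapped in nuclei. *cox-17* had means of 2.07 and 2.26 in nuclei and 0.55 and -0.35 in worms.

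For some loci a whole worm group had 0 reads, so that only a lower bound holds. 21ur-3377 (chromosome IV, 13820369 to 13820389, plus strand, in *Y45F10D.15*) had 0 reads in all 3 *daf-2(e1370)* worm libraries and was at least 249-fold higher in *daf-2(e1370)* nuclei, of which replicate 1 also had 0 reads. 21ur-15389 (chromosome IV, 5874560 to 5874580, plus strand, in a pseudogene) had 0 reads in all 6 worm libraries and was at least 39.1-fold higher in wild-type nuclei and at least 122-fold in *daf-2(e1370)* nuclei. 21ur-1978 (chromosome IV, 16540388 to 16540408, plus strand, in an intron of *uroc-1*) was at least 77.6-fold higher in wild-type nuclei. The bounds for 21ur-11381 and 21ur-6385 in *daf-2(e1370)* were at least 215-fold and 168-fold. All of these loci reached 1 CPM in nuclei libraries only, which fixes the direction. The bounds use a floor of 3 reads over each group and cover counting error only. They hold for the deposited CPM, which sum to 1240000 to 2690000 in nuclei libraries and to 423000 to 645000 in worm libraries. Scaling to library totals would lower each bound, and was not done for them.

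All 7 loci in introns reached 1 CPM in nuclei libraries only. 21ur-2344 (chromosome IV, 17074903 to 17074923, plus strand, opposite *Y116A8C.25*) stood at 2.08, 2.27 and 2.98 log2 CPM in wild-type nuclei and at 1.71, 2.73 and 3.12 in *daf-2(e1370)* nuclei. In worms it was -1.73, -1.46 and -0.89 in the wild type and -3.36, 0 reads and -3.35 in *daf-2(e1370)*. 21ur-13982 (chromosome IV, 6507413 to 6507433, minus strand, opposite *pqn-89*, a gene of the glutamine/asparagine-rich family) stood at 1.90, 1.71 and 3.42 in wild-type nuclei, 2.19, 2.56 and 3.43 in *daf-2(e1370)* nuclei, -1.73, -2.29 and -2.33 in wild-type worms and -2.41, -3.53 and -3.60 in *daf-2(e1370)* worms. Both were higher in every nuclei library than in any worm library. *pqn-89* went the other way between fractions as deposited, by -1.06 for the wild type and -1.92 for *daf-2(e1370)*.

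21ur-15344 was the only locus on the same strand as the gene that held it, in an intron of *soc-2*, a scaffold of Ras signaling (chromosome IV, 5138173 to 5138193, minus strand). Its lowest, median and highest level was -3.89, 2.56 and 3.84 log2 CPM in nuclei and -3.89, -3.63 and -1.87 in worms. *soc-2* had means of 2.46 in wild-type nuclei and -1.997 in *daf-2(e1370)* nuclei, with 0 reads in *daf-2(e1370)* replicate 1, a library in which 21ur-15344 also had 0 reads. 21ur-11381 lies 564 bp from the same gene (5126457 to 5126477, minus strand), so the 2 loci share a neighbor, and it was at 0.55, 1.04 and 2.89 in nuclei.

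The remaining loci in introns repeated the pattern at lower counts. 21ur-9300 (chromosome IV, 6935040 to 6935060, plus strand) is opposite *npr-12*, a neuropeptide receptor gene with 0 reads in 5 of the 6 nuclei libraries, and was itself at -0.26, 1.34 and 2.25 log2 CPM in nuclei and at most -2.44 in worms. 21ur-3112 (15405591 to 15405611, minus strand, opposite the nuclear receptor gene *nhr-5*) was at -1.04, 1.40 and 2.53 in nuclei and at most -2.46 in worms. 21ur-9960 (4630304 to 4630324, plus strand, opposite *F19C7.8*) was at -3.89, 1.42 and 3.08 in nuclei and at most -1.06 in worms. 21ur-9300 had reads in all 6 nuclei libraries while the gene around it had them in 1.

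The loci can be set beside the genes that hold them only as a description, because a locus kept through nuclei libraries alone had to have a large difference between nuclei and worms. Of 7 loci with a measured gene whose exon covers them, 6 had a larger difference than the gene for the wild type and 6 for *daf-2(e1370)*. The median was 2.22 at the loci against 0.48 at the genes in the wild type, and 4.02 against 0.41 in *daf-2(e1370)*. The exception in both genotypes was 21ur-12975. Of 7 loci within an intron of a measured gene, 21ur-5639 in *jac-1* included, 7 had the larger difference in each genotype, with medians of 4.57 against -0.14 and of 4.64 against -1.40. For the 6 loci between genes with a measured gene within 1000 bp, the locus had the larger difference in 5 (wild type) and 6 (*daf-2(e1370)*), with medians of 4.57 against 1.26 and 5.61 against 0.80. Nothing is read from these counts and medians.

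**Figure D4:**
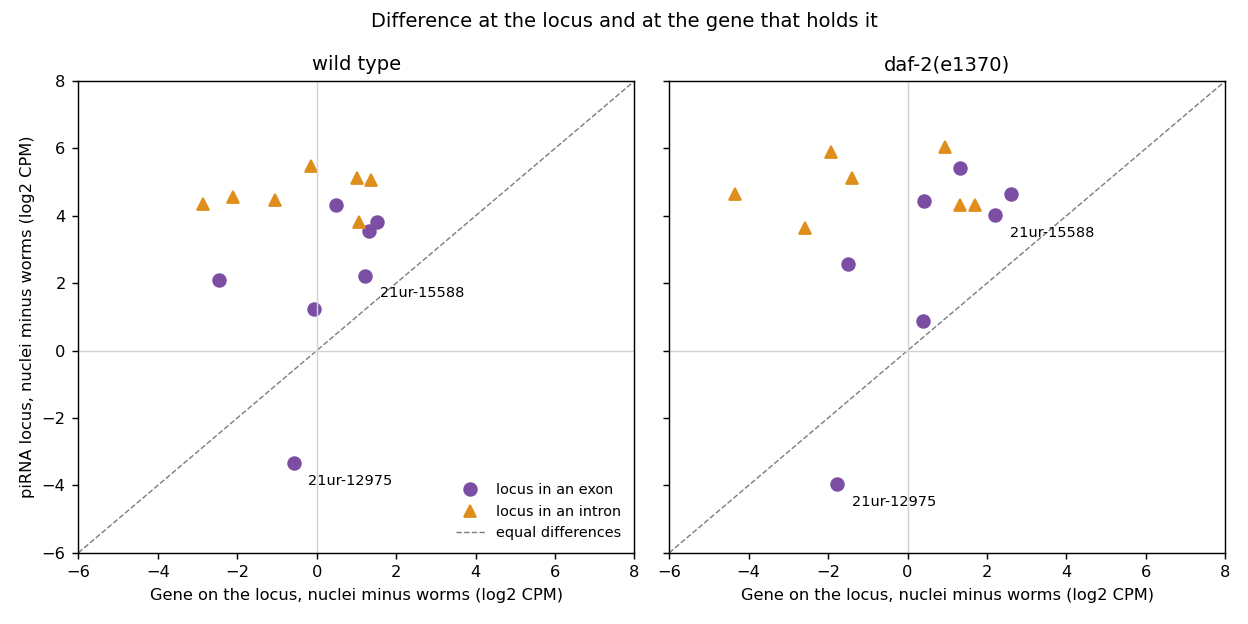
Difference between the means of nuclei and worm libraries (log2 CPM) for the gene that holds a locus (horizontal) and for the piRNA locus (vertical), with 1 panel per genotype. Circles are 7 loci on exons of a measured gene, triangles 7 loci within an intron of a measured gene (21ur-5639 with *jac-1* among them), and the dashed line marks equal differences. All points but 21ur-12975 lie above the line.

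Between genes, 21ur-15089 (chromosome IV, 13168027 to 13168047, minus strand, 65 bp from the ncRNA gene *F09E8.11* on the other strand) had the highest mean. It stood at 3.56, 3.87 and 0.03 log2 CPM in wild-type nuclei, 1.71, 3.84 and 4.196 in *daf-2(e1370)* nuclei, -0.32, -1.82 and 0 reads in wild-type worms and 0 reads, -3.53 and -2.96 in *daf-2(e1370)* worms. 21ur-15589 (chromosome III, 13118794 to 13118814, minus strand) is 105 bp from *dhhc-8*, a palmitoyltransferase gene on the other strand. It was at 2.32, 3.19 and 0.49 in wild-type nuclei, 1.36, 3.41 and 3.15 in *daf-2(e1370)* nuclei, -2.04, -1.54 and -1.29 in wild-type worms and -2.81, -3.25 and -2.96 in *daf-2(e1370)* worms. At both loci every nuclei library exceeded every worm library, and at 21ur-15589 the worm genotypes did not overlap.

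In the eastern stretch, 21ur-4205 (15601511 to 15601531, minus strand, 2771 bp from an ncRNA gene) was at 0.87, 3.89 and 3.27 log2 CPM in wild-type nuclei, 3.30, 1.45 and 3.34 in *daf-2(e1370)* nuclei, -1.06, -2.98 and -2.78 in wild-type worms and -3.15, -3.53 and -2.88 in *daf-2(e1370)* worms. 21ur-5575 (15997760 to 15997780, plus strand, 55 bp from *jac-1*) was at 2.04, 3.52 and 3.12 in wild-type nuclei, 1.77, 0.48 and 4.03 in *daf-2(e1370)* nuclei, -1.87, -2.43 and -1.29 in wild-type worms and -2.81, 0 reads and -3.14 in *daf-2(e1370)* worms. The genotypes overlapped in nuclei at both loci and in worms at 21ur-4205, while at 21ur-5575 all *daf-2(e1370)* worms were below all wild-type worms. In the western stretch, 21ur-6779 (5252887 to 5252907, plus strand, 500 bp from *F36H12.10*) was at 1.69, 2.90 and 2.28 in wild-type nuclei, 1.51, 2.59 and 4.19 in *daf-2(e1370)* nuclei, 0 reads, -1.63 and -1.39 in wild-type worms and 0 reads, -3.53 and -3.60 in *daf-2(e1370)* worms. There the nuclei of both genotypes overlapped, and so did the worms.

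The other 15 loci between genes can be given by their range. 5 of them had reads in all 6 nuclei libraries with every nuclei value above every worm value, and their median nuclei level was 2.58 log2 CPM at 21ur-13404 (chromosome IV, 15733522 to 15733542, plus strand), 2.24 at 21ur-328 (16613398 to 16613418, minus strand), 2.14 at 21ur-3644 (5967703 to 5967723, minus strand), 2.36 at 21ur-2058 (5072747 to 5072767, minus strand) and 2.66 at 21ur-1240 (15912012 to 15912032, plus strand). 21ur-11381, described above, did so too. The lowest nuclei values among these 6 loci ran from -1.35 to 1.71, and their highest worm values from -3.37 to -1.73. The remaining 9 loci had a nuclei library at or below their highest worm value. Their median nuclei level was 1.497 at 21ur-7077, 0.86 at 21ur-2785, 0.99 at 21ur-5867, 1.27 at 21ur-11087, 1.09 at 21ur-6385, 0.68 at 21ur-1829, 0.81 at 21ur-15106, 0.68 at 21ur-2909 and 0.50 at 21ur-8401, and the median worm level of each was -3.25 or lower.

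*daf-2(e1370)* was then compared with the wild type within nuclei, the comparison that asks what reduced insulin/IGF-1 signaling does in germ cells. None of the 37 loci passed (limma on the 6 nuclei libraries, against 3.85% of all genes, 524 of 13613), with 1 locus at an unadjusted p under 0.05 (all genes, 20.9%). The median difference was 0.02 log2 CPM over the loci and -0.15 over all genes, 20 loci were higher and 17 lower. 21ur-8401 (chromosome IV, 16994560 to 16994580, minus strand, 1242 bp from *rom-4*, a rhomboid gene) was the locus that reached 1 CPM in *daf-2(e1370)* nuclei alone, so it is given as a level. It was at -0.52, 0 reads and 0 reads in wild-type nuclei and at 1.51, 2.86 and 2.10 in *daf-2(e1370)* nuclei, or 5, 0 and 0 reads against 20, 81 and 27. All *daf-2(e1370)* nuclei libraries exceeded all wild-type ones at 2 of 37 loci, 21ur-8401 and 21ur-12556 (all genes, 12.1%). At 21ur-8401 the filter fixed this, since that locus was kept through *daf-2(e1370)* nuclei alone, so nothing is read from the count.

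*daf-2(e1370)* nuclei replicate 1 stood apart at these loci. It had 0 reads at 13 of 37 loci, where the other nuclei libraries had 0 reads at 1 to 3, and its median level was 0.68 log2 CPM against 2.36 and 2.66 in replicates 2 and 3. Over all genes of the table the medians were 2.13, 2.36 and 2.35. The median SD over the loci was 1.27 in *daf-2(e1370)* nuclei and 0.53 without replicate 1, and 0.97 in wild-type nuclei, against 0.68, 0.505 and 0.58 over all genes. Without that library the median difference between genotypes was 0.93 over the loci and -0.09 over all genes, and again no locus passed. The self-fertile adults hold sperm, and the 9 sperm markers summed to 277 to 396 CPM in *daf-2(e1370)* nuclei and to 517 to 781 CPM in wild-type nuclei, whose part in these values was not tested.

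In whole worms the loci leaned lower in *daf-2(e1370)*. Of 37 loci, 31 had a lower mean in *daf-2(e1370)* than in wild-type worms, and the median difference was -0.59 log2 CPM, against -0.02 over all genes. Other classes that are not protein-coding had medians of the same sign, -0.67 for ncRNA genes, -0.60 for pseudogenes, -0.88 for lincRNAs and -0.94 for antisense RNAs, so the lean was not particular to piRNA loci. All *daf-2(e1370)* worm libraries were below all wild-type ones at 12 loci (all genes, 21.6%), and at none were they all above. Past the threshold were 2 loci, both lower (all genes, 11.2% lower and 6.81% higher), and 8 had an unadjusted p under 0.05 (all genes, 36.4%), so neither share of the loci exceeded that of all genes. These low worm values rest on 1 to 6 reads at the median locus, and the summed sperm markers were lower in *daf-2(e1370)* worms too, at 121 to 177 CPM against 218 to 417 CPM in the wild type, whose part was not tested.

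The 2 loci were 21ur-2344 and 21ur-15588. 21ur-2344 fell by 2.17 ± 0.51 log2 CPM (SE, limma, adjusted p = 0.0184), from 8, 15 and 18 reads in the wild type to 2, 0 and 2 in *daf-2(e1370)* worms. The intron's gene, *Y116A8C.25*, differed by 0.40 ± 0.43 (SE, limma, adjusted p = 0.522). 21ur-15588 fell by 1.74 ± 0.43 (SE, limma, adjusted p = 0.0218), from 573, 294 and 439 reads to 279, 151 and 154. On the other strand, *sec-61.B* differed by -0.98 ± 0.34 (SE, limma, adjusted p = 0.0638). *Y38F2AR.3*, which lies 156 bp away on the strand of the locus, differed by -0.92 ± 0.30 (SE, limma, adjusted p = 0.0514). All *daf-2(e1370)* worm libraries were below all wild-type ones at both loci.

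Both calls depended on single libraries. Leaving out 1 worm library at a time gave adjusted p-values from 0.0145 to 0.0900 for 21ur-2344 and from 0.00784 to 0.0965 for 21ur-15588, with differences from -2.36 to -1.94 and from -2.16 to -1.39. No locus passed without *daf-2(e1370)* replicate 2 or without replicate 3, 1 passed without wild-type replicate 3, and 5 passed without wild-type replicate 2. Within nuclei the difference was 0.08 ± 0.57 at 21ur-2344 and 0.06 ± 0.23 at 21ur-15588 (SE, limma, adjusted p = 0.961 and 0.92), and neither passed.

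**Figure D5:**
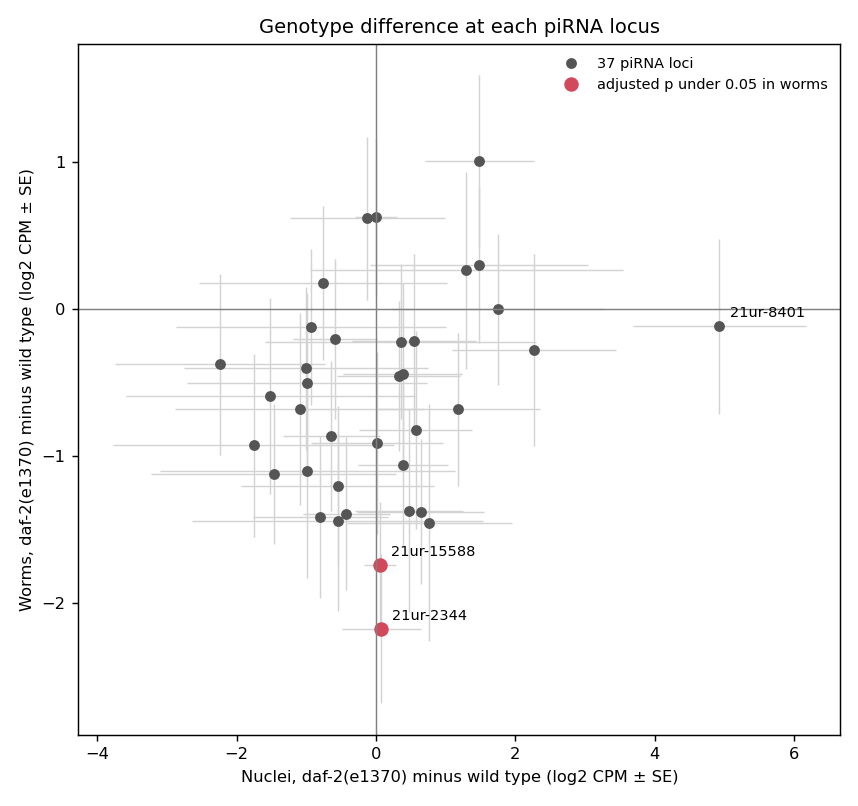
Difference between *daf-2(e1370)* and the wild type at each of the 37 piRNA loci, in nuclei (horizontal) and in worms (vertical), in log2 CPM with the SE of the limma fit as bars. Red marks 21ur-2344 and 21ur-15588, which passed in worms, where 31 of 37 loci lie below 0, and 21ur-8401 lies far to the right with 2 of its 3 wild-type nuclei libraries at 0 reads.

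Whether the difference between nuclei and worms itself changed with genotype was tested in a fit of all 12 libraries. It passed at none of the 37 loci (limma, against 0.103% of all genes, 14 of 13613), and 2 loci had an unadjusted p under 0.05 (all genes, 12.2%). At 21ur-15588 the difference was 1.80 ± 0.54 larger in *daf-2(e1370)* (SE, limma, adjusted p = 0.172), and it passed only when wild-type worm replicate 2 was left out (2.21, adjusted p = 0.0436). The median over the loci was 0.76 as a difference of differences, against -0.11 over all genes.

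HSF-1 depletion could be followed at a single locus. Among the 3 loci listed there, 21ur-14330 (chromosome V, 6614915 to 6614935, minus strand, in an exon of *cpr-4*, a cathepsin B-like protease) had 0 reads in all 12 libraries, and 21ur-15576 had reads in 3 of them, all at 88 h. 21ur-12975 had 19 to 51 reads in every library and was the only locus to reach 1 CPM in enough of them. At 16 h it was at 0.53, 0.53 and 0.90 log2 CPM on ethanol and at 0.54, 0.43 and 0.43 on auxin. At 88 h it was at -0.27, 0.34 and -0.17 on ethanol and at 0.18, 0.45 and 0.81 on auxin, and the groups overlapped at both times. The depletion difference was -0.19 ± 0.28 at 16 h and 0.51 ± 0.28 at 88 h (SE, limma, adjusted p = 1 and 0.89). Thus 0 of 1 locus passed at either time, where 0.0792% of all genes passed at 16 h and 0.103% at 88 h. At an unadjusted p under 0.05 it was again 0 of 1, against 4.43% and 5.95% of all genes. *mua-6*, the gene on the other strand, had means of 6.85 and 6.84 at 16 h and 7.14 and 7.22 at 88 h.

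The genes of the piRNA pathway were compared as a list of 33 names, of which 31 were measured. *mut-2* and *rde-3* on that list name the same gene, which is counted once, as *mut-2*, and *prg-2* was not measured. PRG-1, which binds mature piRNAs, was well read in both fractions. *prg-1* stood at 5.94, 5.98 and 5.80 log2 CPM in wild-type nuclei, 6.79, 6.65 and 6.15 in *daf-2(e1370)* nuclei, 5.45, 6.02 and 5.59 in wild-type worms and 5.76, 6.85 and 6.85 in *daf-2(e1370)* worms. The *daf-2(e1370)* nuclei were above the wild-type nuclei without overlap, by 0.62 ± 0.20, which did not pass (SE, limma, adjusted p = 0.151). In nuclei none of the 31 genes passed between genotypes, against 3.85% of all genes, with 9 at an unadjusted p under 0.05 (all genes, 20.9%) and a median of 0.31 against -0.15 over all genes.

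In worms 2 of the 31 were higher in *daf-2(e1370)* and none lower (all genes, 6.81% and 11.2%), with a median of 0.64 against -0.02. The share that was higher was near that of all genes and is no result about the list. Both act downstream of PRG-1, in the mutator complex that makes secondary small RNAs. *mut-2*, a nucleotidyltransferase gene, was at 3.01, 4.46 and 3.36 log2 CPM in wild-type worms and at 5.54, 5.53 and 5.41 in *daf-2(e1370)* worms, a rise of 1.89 ± 0.36 (SE, limma, adjusted p = 0.00709). *mut-14*, a helicase gene, rose by 0.94 ± 0.28 (SE, limma, adjusted p = 0.0411), from 3.91, 4.68 and 4.04 to 5.29, 5.14 and 5.04. The groups of neither gene overlapped. The other *mut* genes of the list, *mut-7*, *mut-15* and *mut-16*, did not pass. They differed by 1.20, 0.48 and -0.002 (limma, adjusted p = 0.0918, 0.249 and 0.997). *prg-1* differed by 0.80 ± 0.33 (SE, limma, adjusted p = 0.11).

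Between nuclei and worms, 3 pathway genes were higher in nuclei and 9 lower in the wild type, and 3 and 17 in *daf-2(e1370)*, with medians of -0.42 and -1.07 beside -0.34 and -0.63 over all genes. Of all genes, 15.9% were higher and 19.4% lower in wild-type nuclei, and 21.3% and 32% in those of *daf-2(e1370)*. Among those with the smallest p in the wild type, *wago-1*, an Argonaute downstream of PRG-1, was 1.31 ± 0.26 higher. *tofu-5*, which acts in the transcription of piRNA loci, was 2.28 ± 0.38 lower in nuclei, and *drh-3*, a helicase gene of secondary small RNA synthesis, 1.90 ± 0.34 lower (limma, adjusted p = 0.0016, 0.00047 and 0.00077). *mut-7*, an exonuclease gene of the mutator group, was 2.51 lower. In *daf-2(e1370)*, *mut-16*, the scaffold of the mutator foci, was 2.20 ± 0.27 higher in nuclei and *mut-2* 4.70 ± 0.71 lower (SE, limma, adjusted p = 1.6e-05 and 9.63e-05). Scaled to library totals, 0 of the 31 were higher and 28 lower in each genotype. Over all genes 68.2% and 76.2% passed on that scale, and 5.4% and 8.6% of those calls were higher in nuclei. The medians were -2.35 and -3.24 over the list and -2.18 and -2.65 over all genes, so nothing is read from the count. On that scale *wago-1* was at -0.62 and -0.44 and *mut-16* at -0.74 and 0.03, so the direction of the higher genes rests on the deposited scaling. *prg-1* differed by 0.22 for the wild type and 0.04 for *daf-2(e1370)* as deposited, and neither passed. No pathway gene passed for HSF-1 depletion at 16 h or 88 h, with 2 at an unadjusted p under 0.05 at each time (all genes, 4.43% and 5.95%). None passed for the change of the nuclei difference with genotype, with 3 at an unadjusted p under 0.05 (all genes, 12.2%).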

How the data were processed

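Poly(A)-enriched directional libraries were sequenced in pairs. Per the study's methods, reads were aligned with STAR to the Ensembl WBcel235 genome and counted with featureCounts, with multimapping and overlapping reads shared as fractions, and the strand setting is not given in the sources used here. The authors deposited log2 CPM values made with edgeR. Their methods describe removing genes under 1 CPM in most samples, but 593 genes of the nuclei table and 324 of the depletion table lie below that limit. Columns of the authors' own comparisons (fold changes and p-values) were not used.

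Loci were placed with the Ensembl annotation, release 115. Genes with at least 1 CPM in 25% of libraries were fitted with limma 3.58.1 (R 4.3.3, empirical Bayes with trend), and p-values were adjusted by Benjamini-Hochberg over all genes kept, with a threshold of 0.05. Genotypes were compared within the 6 libraries of a fraction, and the fractions over all 12. Reads were recovered from the spacing of low values; 28.9% to 86.3% of the values examined in a library lay within 0.05 of a whole read, so recovered reads are approximate and no count test was run. The fit was tested on simulated data. Other steps used Python 3.11.15, numpy 2.4.6, pandas 2.3.3 and matplotlib 3.10.9.

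The naming rule asked for values in every library for the 10 loci of highest mean level, those past the threshold in any comparison and those in both tables. It was not followed in full: loci past the threshold only between nuclei and worms are given by their range, their median or a lower bound, and 21ur-8401 was singled out after its values were seen. Named beside them are genes that overlap or neighbor the loci, *prg-1* and up to 4 pathway genes of smallest p in each comparison. In worms the other *mut* genes were added to these. The loci and lists were chosen with earlier results of these data known. Same-numbered replicates deviated together, with every correlation over 0.1, for wild-type nuclei and worms (0.113 to 0.138), and for depletion and control at 16 h (0.121 to 0.624) and 88 h (0.274 to 0.664). The study's methods say that nuclei and lysate were both kept for sequencing, so same-numbered libraries of both fractions may come from shared preparations. The main fits did not pair these libraries, and a replicate block was fitted as an alternative. A planned search for a motif upstream of the loci was not run.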

Additional observations from a re-analysis of the deposited data

How the results depend on the processing

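The replicate block was fitted for each comparison and left 0 loci past the threshold between genotypes in nuclei, 2 in worms, 27 between nuclei and worms for the wild type and 33 for *daf-2(e1370)*, so it changed none of these counts by over 1.5 times. In nuclei 1 locus passed with all 12 libraries in the fit, but the filter had kept it only through *daf-2(e1370)* nuclei, so nothing is read from it. In worms 1 locus passed on the log2(CPM + 1) scale and 1 with all 12 libraries in the fit. Leaving out 1 library at a time gave 0 loci in nuclei, 0 to 5 in worms, 22 to 26 between wild-type nuclei and worms, 24 to 36 between those of *daf-2(e1370)*, and 0 to 1 for the change with genotype, where the 1 came without wild-type worm replicate 2. With library totals as the scale, an alternative added after seeing the data, 23 and 32 loci passed between nuclei and worms. Of these, 22 and 31 were higher in nuclei. Over all genes 68.2% and 76.2% passed, and 5.4% and 8.6% of those calls were higher in nuclei. The loci and all genes thus differed in direction, which the filter had fixed for most loci, so nothing is read from these counts. The call of 21ur-12975 as lower in wild-type nuclei was lost on the log2(CPM + 1) scale. No result changed its direction past the threshold. Over all genes the count between genotypes in nuclei was 524 as reported, 0 with the replicate block, 0 with library totals, 1791 with all 12 libraries and 0 without any 1 of the *daf-2(e1370)* nuclei libraries, so the background for nuclei is itself unstable. In worms it was 2453 as reported, 4122 with the replicate block and 798 with all 12 libraries. Between nuclei and worms in the wild type it was 4808 as reported and 9283 with library totals. For the change with genotype it was 14 as reported, 131 with the replicate block, 24 on the log2(CPM + 1) scale, 1 with library totals and 181 without wild-type worm replicate 2. For 88 h it was 13 as reported and 8 when the other time was left out of the fit. The causes of these changes were not tested. Worm levels of most loci rest on 1 to 6 reads at the median, so differences there were near the limit of detection.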

Other observations

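Among the nearest genes of the loci between genes were a pair of noncoding genes that, like most of the loci, reached 1 CPM in nuclei libraries only, which fixes the direction of their values. *B0350.73*, an ncRNA gene 406 bp from 21ur-3644 on the same strand, had mean levels of 1.98 log2 CPM in wild-type nuclei and 1.89 in *daf-2(e1370)* nuclei, and of -2.47 and -2.93 in worms. *anr-55*, an antisense RNA gene 1061 bp from 21ur-2909 on the same strand, had means of 2.23 and 2.32 in nuclei and of -2.29 and -3.47 in worms (n = 3 in each group).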
